A study of Homo sapiens with 4 samples.

Results

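The clustered protocadherins are cell surface proteins of the cadherin superfamily whose genes stand in tandem arrays on the long arm of human chromosome 5. They were followed here in a single-cell RNA-seq series on 2 cancer cell lines. A gene table row was taken as a member when its name began with PCDHA, PCDHB, PCDHGA, PCDHGB or PCDHGC. This gave 59 of the 43296 names in the table. Of these, 57 name 1 gene and 2 join a pair of genes, PCDHA10_PCDHA14 and PCDHGA8_PCDHGB4, and the joined names are reported apart.

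H1299 (human, from a non-small cell lung carcinoma) and HCT116 (human, from a colorectal carcinoma) are established lines, and each was cultured either with DMSO, the solvent, or with a pair of inhibitors. DAC is decitabine, a nucleoside that blocks DNA methyltransferases, and it was given at 500 nM over 72 h. SB939 (pracinostat), which blocks histone deacetylases, was given at 500 nM over 18 h. Medium with compound was changed every 24 h, all cells were at passage 5 to 10, and the treated libraries are called DAC+SB. Each of the 4 groups was 1 library of a culture made with the 5′ chemistry of 10x Genomics, so there was no replicate, and no test between groups was run and no p-value computed. The intervals given are 95% counting intervals and say nothing of the spread between cultures. In H1299 the libraries held 3578 cells with DMSO and 3726 with DAC+SB, and in HCT116 3658 and 4327. Total counts of genes and transposable elements lay between 62428673 and 64524196 in 3 libraries, against 38927267 in treated HCT116. The last library also had the fewest counts per cell (median 8449, against 15784.5 to 17369.5 elsewhere) and the highest median mitochondrial share (18.6%, against 8.33% to 15.8%). Between 60 and 71 cell barcodes of each library also occurred in another library. A list of 10 mesenchymal markers summed to 3059 and 1614 counts per 1000000 counts of the library (CPM) in H1299 (DMSO first) and to 384 and 367 in HCT116. VIM held most of the H1299 sums (2282 and 1151). The list's members went both ways in each line. In H1299 AXL went from 204 to 21.3 CPM and SPARC from 0.248 to 9.39. In HCT116 VIM went from 47.0 to 265 CPM and CAV1 from 161 to 35.7. FSTL1 was higher in untreated HCT116 (9.53) than in untreated H1299 (4.26). A list of 10 colon epithelial markers summed to 0.264 and 11.3 in H1299 and to 110 and 69.0 in HCT116, where CDX1 and CDH17 were at 0 with DMSO. Its members too went both ways in HCT116, with ESRP1 from 12.5 to 2.41 CPM and CDH1 from 0.798 to 3.47, while EPCAM, not past 4-fold, was at 80.7 and 45.2.

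The protocadherin arrays are known from neurons, where each cell expresses a small and largely random choice of isoforms that serves as a surface identity and lets neurites of 1 cell avoid each other. Each alpha and gamma gene has its own promoter and a large first exon coding for the extracellular cadherin repeats, the transmembrane segment and part of the cytoplasmic tail, and this exon is spliced to constant exons shared by its array. Each beta gene is a single coding exon. Most promoters carry a conserved element around the letters CGCT, promoter choice depends on DNA methylation and on CTCF and cohesin, and the arrays are often silenced by methylation in tumours. The C-type genes (PCDHAC1, PCDHAC2 and PCDHGC3 to PCDHGC5) lie at the 3′ ends of their arrays and are known for a more regular, less random expression.

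In GENCODE v29 on GRCh38, the build named in the submitters' processing notes, all members lay on the plus strand of chromosome 5. They ran from PCDHA1 (start 140786136) to the shared end of the gamma array at 141512979. The alpha genes all end within the same constant exons near 141012344, so the later genes lie inside the introns of the earlier ones. The sources used here do not say how reads were divided between such overlapping genes, or between the closely similar beta genes, and the values of single members are uncertain to that extent.

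The 12 sequences below are examples picked by hand from the promoter windows that hold the letters CGCT, which most of the windows share. These letters alone do not identify the conserved element. Where the counted transcripts start was not measured. RefSeq promoter windows (250 bases before to 50 after the start, GRCh38.p14) were found for 46 of the 57 genes. The letters CGCT on the gene's strand stood 30 to 90 bases before the RefSeq start in 41 of the 46 windows (89.1%), against 5233 of 27305 windows of all genes (19.2%). On either strand and at any place, CGCT was in 45 of the 46 windows (97.8%) and in 69.3% of all windows. Each line gives 50 bases, 5′ to 3′, with CGCT in capitals. The stretches of PCDHAC2 and PCDHB16 lie downstream of the gene starts in GENCODE v29, 140966235 and 141181399.
PCDHA1 (chr5:140786082-140786131, +): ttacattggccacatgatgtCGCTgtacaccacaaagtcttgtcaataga
PCDHA12 (chr5:140875240-140875289, +): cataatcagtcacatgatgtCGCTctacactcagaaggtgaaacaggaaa
PCDHAC1 (chr5:140926216-140926265, +): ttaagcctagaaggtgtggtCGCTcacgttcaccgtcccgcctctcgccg
PCDHAC2 (chr5:140966415-140966464, +): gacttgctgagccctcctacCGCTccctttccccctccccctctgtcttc
PCDHB2 (chr5:141094540-141094589, +): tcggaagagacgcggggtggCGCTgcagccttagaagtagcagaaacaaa
PCDHB16 (chr5:141182306-141182355, +): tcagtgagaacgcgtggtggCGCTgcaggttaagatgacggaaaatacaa
PCDHB10 (chr5:141192295-141192344, +): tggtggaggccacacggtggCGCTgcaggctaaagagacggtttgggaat
PCDHB15 (chr5:141245310-141245359, +): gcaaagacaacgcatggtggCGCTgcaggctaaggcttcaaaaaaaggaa
PCDHGA2 (chr5:141338699-141338748, +): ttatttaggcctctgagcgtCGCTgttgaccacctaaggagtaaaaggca
PCDHGA3 (chr5:141343763-141343812, +): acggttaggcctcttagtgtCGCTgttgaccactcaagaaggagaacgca
PCDHGA10 (chr5:141412927-141412976, +): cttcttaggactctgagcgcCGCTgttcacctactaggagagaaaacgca
PCDHGC3 (chr5:141475876-141475925, +): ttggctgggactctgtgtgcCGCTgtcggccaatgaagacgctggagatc

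The letters next to CGCT were compared between arrays. The run GTGGCGCTGCAG, which is CGCT with 4 bases on either side in PCDHB2, was chosen after these windows were seen. Searched on both strands, it was in 9 of 13 beta windows (69.2%), in none of the alpha, gamma or C-type windows, and in 13 of 27305 windows (0.0476%) of all genes. The run GTCGCTGT, chosen in the same way from PCDHA1 with 2 bases on either side, was in 5 of 11 alpha windows, 5 of 11 gamma A windows and 1 of 7 gamma B windows, and in 192 of 27305 windows (0.703%) of all genes. The pair CpG, the site of DNA methylation, was present 2 to 12 times in gamma A windows (median 5), 3 to 9 times in alpha windows (median 7) and 5 to 12 times in beta windows (median 8). Gamma B windows held 7 to 16 (median 11). The 4 C-type windows held 15 to 27 (median 20.5), above the median of 13 over all genes. These matches describe the letters and were not measured as bound or methylated sites.

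The first comparison asked how the level of the whole set differed between DAC+SB and DMSO. Levels are CPM, counts scaled to the library's gene and transposable element total and not divided by length. In H1299 the 57 genes summed to 2575 counts (39.9 CPM, interval 38.4 to 41.5) with DMSO and to 3563 counts (57.1 CPM, 55.2 to 59.0) with DAC+SB, 1.43 times as high (1.359 to 1.505). In HCT116 they summed to 250 counts (3.99 CPM, 3.51 to 4.52) with DMSO and to 933 counts (24.0 CPM, 22.4 to 25.6) with DAC+SB, 6.005 times as high (5.22 to 6.93). H1299 thus held the higher level under both treatments, and the treated HCT116 library stayed below the untreated H1299 library. On the log2 scale the ratio of H1299 less that of HCT116 was -2.07 (-2.28 to -1.86). The HCT116 log2 ratio of 2.59 was 2.58 without cells above 25% mitochondrial counts, but 3.85 without PCDHAC2 and PCDHGA10, the 2 genes with most counts in that DMSO library. In H1299 the log2 ratio of 0.52 was 0.40 without numbered features listed in 1 library only.

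**Figure D1:**
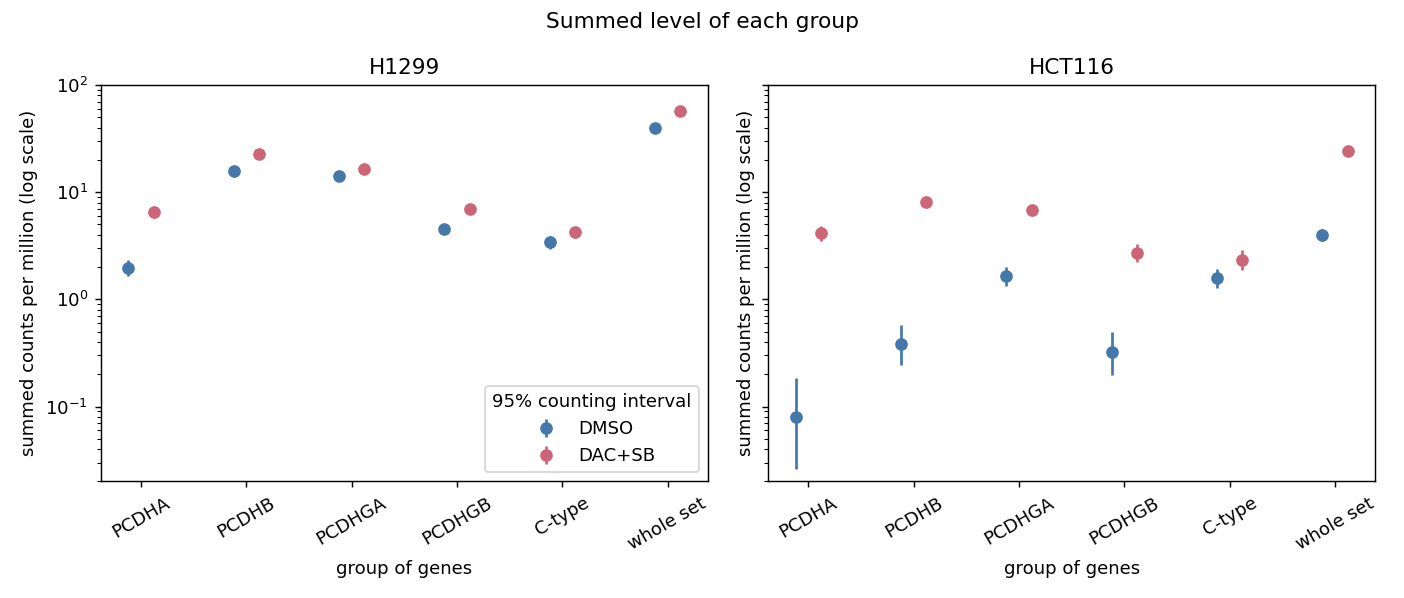
Summed level of each group of genes in CPM (log axis) for H1299 (left) and HCT116 (right), with DMSO in blue and DAC+SB in red. Points are single libraries and bars are 95% counting intervals. The DMSO and DAC+SB points lie far apart for PCDHA, PCDHB and PCDHGB in HCT116 and close together for the C-type genes in both lines.

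The 5 groups differed in their ratios. The 13 alpha genes went from 127 to 407 counts in H1299 (ratio 3.31, 2.71 to 4.08) and from 5 to 161 counts in HCT116 (ratio 51.8, 21.8 to 162). The 18 beta genes went from 1025 to 1425 counts in H1299 (ratio 1.44, 1.32 to 1.56) and from 24 to 312 in HCT116 (ratio 20.9, 13.8 to 33.1). The 12 gamma A genes went from 911 to 1037 counts in H1299 (ratio 1.18, 1.08 to 1.29) and from 103 to 264 in HCT116 (ratio 4.12, 3.27 to 5.23). The alpha genes thus had the highest ratio of the 5 groups in each line. Gamma B, with 9 genes, went from 293 to 430 counts in H1299 (ratio 1.52, 1.30 to 1.77) and from 20 to 105 in HCT116 (ratio 8.45, 5.20 to 14.4). The 5 C-type genes were at 219 and 264 counts in H1299 (ratio 1.25, 1.038 to 1.497) and at 98 and 91 in HCT116 (ratio 1.49, 1.11 to 2.01). They were the group whose ratios were closest in the 2 lines, with a log2 difference of -0.26 (-0.75 to 0.22), while the differences of the other groups lay between -3.97 and -1.81 with intervals below 0. This rested on PCDHAC2, since the difference of the other 4 C-type genes was -2.31 (-3.29 to -1.33). A numbered feature has a number after the gene's name and was read here as a part of the gene. The gamma ratios in H1299 were lower without numbered features that were listed in 1 library only. The log2 ratio of gamma A was then 0.06 in place of 0.24, and that of gamma B 0.34 in place of 0.60.

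Members were next read one by one. In H1299, 13 of the 57 genes had 100 counts or more in whichever library was higher, of which 5 were at least 4-fold higher with DAC+SB (11.0% of all genes were, under the same rule) and 0 at least 4-fold lower (0.349% of all genes). In HCT116 none of the 57 reached 100 counts, where 9.63% of all genes that did were higher and 3.69% lower. At a minimum of 20 counts, 17 of 48 members were higher in H1299 (19.9% of all genes) and 0 lower (0.582%). In HCT116 13 of 15 were higher (18.6%) and 0 lower (3.46%). At a minimum of 1 count, 20 of 56 were higher in H1299 (19.9% of all genes) and 38 of 52 in HCT116 (22.0%), with 0 lower in either (1.43% and 3.24%). No member reached 500 counts, where 4.08% and 0.363% of all genes were higher and lower in H1299, and 3.56% and 3.94% in HCT116. At 2-fold and 100 counts, 6 members were higher in H1299 (18.3% of all genes) and 1, PCDHGA3, lower (7.34%). At 2-fold and 20 counts, H1299 had 27 members higher (28.4%) and 4 lower (7.47%). HCT116 had 13 (26.9%) and 0 (17.4%) by that limit. The 5 genes at least 4-fold higher in H1299 were PCDHB10, PCDHB16, PCDHGA2, PCDHGA11 and PCDHGA12. With numbered features left out where only 1 library listed them, only PCDHB16 met both limits. PCDHB10 (14 and 70 counts), PCDHGA2 (4 and 90) and PCDHGA11 (19 and 87) were then under 100 counts, and PCDHGA12 (43 and 119) was under 4-fold. Without the 5% of cells with most counts, 2 members met both limits. The log2 ratios of PCDHB10, PCDHB16 and PCDHGA12 were then 3.02, 2.88 and 2.33, against 2.94, 2.97 and 2.34 in all cells. These 3 thus stayed past 4-fold, and a member among them that was no longer counted had fallen under 100 counts. The share of all genes was not computed for either of these alternatives. A member that reached the minimum through its DAC+SB count alone had to differ, so these counts describe the libraries only. Among the members that have an interval in H1299, the counting interval of the ratio lay above 1 for 28 (34.8% of all genes that have an interval), below 1 for 6 (31.7%) and included 1 for 18. A further 4 were at 0 with DMSO and over 3 counts with DAC+SB, and 1 was at or under 3 counts in both. Among those that have an interval in HCT116, it lay above 1 for 23 (34.0% of all genes that have an interval), below 1 for 1 (34.4%) and included 1 for 9. Another 19 were at 0 with DMSO and over 3 counts with DAC+SB, and 5 were at or under 3 counts in both. The share of all genes that went from 0 to over 3 counts was not computed in either line. A gene at 0 in a library has no interval.

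**Figure D2:**
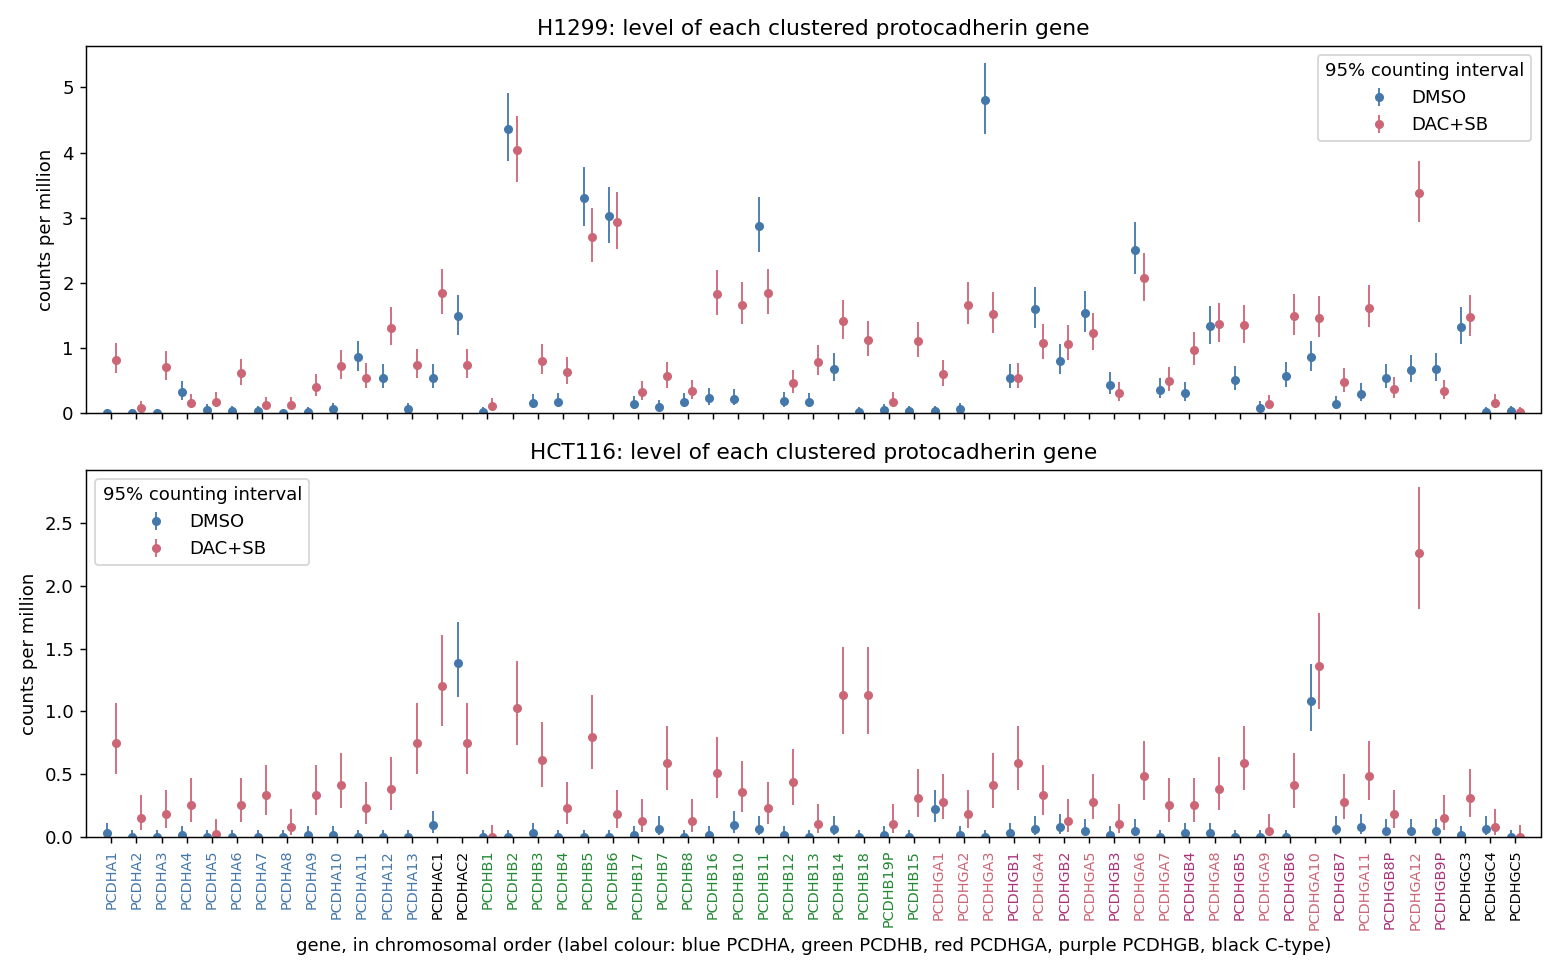
Level of each gene in CPM, in chromosomal order, for H1299 (top) and HCT116 (bottom), with DMSO in blue, DAC+SB in red and 95% counting intervals. In H1299 PCDHGA3 and PCDHB2 are highest with DMSO (310 and 282 counts), and in HCT116 PCDHAC2 and PCDHGA10 are (87 and 68 counts).

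The 13 genes PCDHA1 to PCDHA13 of the alpha array were almost without counts in untreated HCT116 (5 counts in all). The C-type genes of that array, PCDHAC1 and PCDHAC2, had 6 and 87 counts there. PCDHA1, the first gene of the array, had 0 and 51 counts in H1299 (DMSO, then DAC+SB) and 2 and 29 in HCT116. All of these are on its feature without a number, which is listed from 1 count. With the zero set to a floor of 3 counts, that feature was at least 17.6-fold higher in H1299, and it was 23.3-fold (5.90 to 202) higher in HCT116. PCDHA13, the last of the regular alpha genes, had 4 and 46 counts in H1299 and 0 and 29 in HCT116, a ratio of 11.9 (4.34 to 45.5) in H1299. Numbered features listed only with DAC+SB held part of these counts. Its feature without a number had 4 and 16 counts in H1299 (4.13, 1.33 to 17.0) and 0 and 19 in HCT116, at least 10.2-fold higher. PCDHA3 had 0 and 44 counts in H1299 and 0 and 7 in HCT116. Not every alpha gene was higher with treatment in H1299. PCDHA11 had 55 counts with DMSO and 34 with DAC+SB (ratio 0.639, 0.404 to 0.998), but its features without a number were at 35 and 34. PCDHA4 had 21 and 10 counts there (0.492, 0.207 to 1.09), against 1 and 10 in HCT116. PCDHA12 had 35 and 82 counts in H1299, and 35 and 54 over features without a number. These 3 genes held most of the alpha counts of untreated H1299, where the other 10 had 0 to 4 counts each.

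The beta array held the genes with the highest counts that stayed level in H1299. PCDHB2 had 282 counts with DMSO and 252 with DAC+SB in H1299, a ratio of 0.924 (0.776 to 1.10). PCDHB5 had 213 and 169 (0.820, 0.666 to 1.01) and PCDHB6 had 195 and 183 counts (0.970, 0.788 to 1.19). PCDHB11 had 185 and 115, a ratio of 0.642 (0.505 to 0.815), and 163 and 115 over features without a number. In HCT116 the same 4 genes had 0, 0, 0 and 4 counts with DMSO and 40, 31, 7 and 9 with DAC+SB. Over features without a number, the HCT116 counts of PCDHB2 were 0 and 26 (at least 13.9-fold higher) and those of PCDHB5 were 0 and 31 (at least 16.6-fold higher). These genes were therefore among the most counted in untreated H1299 and nearly absent from untreated HCT116.

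Their neighbours in the same array behaved otherwise in H1299. PCDHB16 had 15 counts with DMSO and 114 with DAC+SB, a ratio of 7.86 (4.57 to 14.5), and 1 and 20 in HCT116 (32.2, 5.15 to 1334). PCDHB10 had 14 and 104 in H1299 (7.68, 4.38 to 14.5) and 6 and 14 in HCT116 (3.75, 1.35 to 11.9). PCDHB15, the last coding gene of the array, had 2 and 69 in H1299 (35.7, 9.50 to 300.3) and 0 and 12 in HCT116. PCDHB14 lay between, with 44 and 88 counts in H1299 (2.07, 1.42 to 3.04) and 4 and 44 in HCT116 (17.7, 6.44 to 67.8). Without numbered features listed in 1 library only, its H1299 log2 ratio of 1.05 was 0.26. PCDHB1, the first and most distant beta gene, stayed at 1 and 7 counts in H1299 and 0 in both HCT116 libraries. The beta windows shown above carry GTGGCGCTGCAG both in PCDHB2, which was level in H1299, and in PCDHB10, PCDHB15 and PCDHB16, which were higher with DAC+SB.

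The gamma A genes gave the largest single decrease and the largest single increase in counts of the set in H1299. PCDHGA3 had 310 counts with DMSO, the most of any member in any library, and 95 with DAC+SB, a ratio of 0.317 (0.249 to 0.400). Its numbered feature went from 166 to 10 counts and its features without a number from 144 to 85. In HCT116 it had 0 and 16 counts. PCDHGA12, near the end of the array, had 43 and 211 counts in H1299 (5.07, 3.64 to 7.21) and 3 and 88 in HCT116 (47.2, 15.6 to 233), where it had the most counts of the set with DAC+SB. Without numbered features listed in 1 library only, its H1299 log2 ratio of 2.34 was 1.52. PCDHGA2, which directly precedes PCDHGA3, had 4 and 104 counts in H1299 (26.9, 10.2 to 100.5) and 1 and 7 in HCT116. Of these neighbours PCDHGA3 was thus the lower and PCDHGA2 the higher with DAC+SB, and both stretches printed above hold GTCGCTGT.

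PCDHGA6 had 162 and 129 counts in H1299 (0.823, 0.648 to 1.04) and 3 and 19 in HCT116 (10.2, 3 to 53.8). PCDHGA4 had 103 and 67 in H1299 (0.672, 0.487 to 0.923) and 4 and 13 in HCT116 (5.23, 1.62 to 22.0). PCDHGA10 was 1 of 2 members with a sizeable level in untreated HCT116, with 68 and 53 counts there (1.25, 0.859 to 1.82) and 55 and 91 in H1299 (1.71, 1.21 to 2.44). PCDHGA1, the first gamma gene, was the only 1 of 32 genes with counts in all 4 libraries whose ratio was higher in H1299 than in HCT116 beyond counting error. It had 2 and 37 counts in H1299 (19.1, 4.93 to 164) and 14 and 11 in HCT116 (1.26, 0.519 to 2.998). For 14 of the 32 the ratio was higher in HCT116 by the normal approximation. The shares of all genes that differ between the lines in this way were not computed. Most of the 14 had very few HCT116 DMSO counts, such as 1 for PCDHA4 and 1 for PCDHGC3, where that approximation is rough. Over features without a number PCDHB12, also among the 14, had a log2 difference of -1.951 with an interval that included 0 (-5.155 to 1.254).

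The gamma B genes had lower counts. PCDHGB1 had 35 and 34 counts in H1299 (1.00, 0.608 to 1.66) and 2 and 23 in HCT116 (18.5, 4.57 to 162). PCDHGB7 had 9 and 30 in H1299 (3.44, 1.59 to 8.25) and 4 and 11 in HCT116 (4.42, 1.31 to 19.1). The joined name PCDHGA8_PCDHGB4 had 23 and 113 counts in H1299 (5.08, 3.22 to 8.33) and 0 and 8 in HCT116, while PCDHGA8 alone was at 86 and 85 in H1299. PCDHGB4 alone had 20 and 60 counts in H1299 (3.10, 1.84 to 5.43), but 20 and 25 over features without a number. The other joined name, PCDHA10_PCDHA14, had 5, 6, 0 and 1 counts.

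Among the C-type genes, PCDHAC2 was lower with DAC+SB in both lines, alone among the 57. It had 96 counts with DMSO and 46 with DAC+SB in H1299, a ratio of 0.495 (0.341 to 0.711), and 87 and 29 in HCT116, a ratio of 0.536 (0.340 to 0.825). Over features without a number it went from 86 to 46 and from 74 to 29. PCDHAC1, its neighbour, moved the other way, from 35 to 115 counts in H1299 (3.40, 2.31 to 5.11) and from 6 to 47 in HCT116 (12.6, 5.38 to 36.1). PCDHGC3, the gamma C gene expressed most widely outside neurons, had 85 and 92 counts in H1299 (1.12, 0.824 to 1.52) and 1 and 12 in HCT116 (19.3, 2.86 to 825). Its features moved apart in H1299, where the numbered feature went from 38 to 63 counts and the features without a number from 47 to 29. PCDHGC4, which neurons need for survival, had 1 and 10 counts in H1299 and 4 and 3 in HCT116. PCDHGC5 had 2, 1, 0 and 0 counts. The small change of the C-type sum therefore combined members that moved in opposite directions. The other 4 C-type genes summed to 123 and 218 counts in H1299 (ratio 1.83, 1.46 to 2.30) and to 11 and 62 in HCT116 (ratio 9.07, 4.73 to 19.1).

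Of the 5 names annotated as pseudogenes, the intervals of 2 lay above 1 and of 1 below 1 in H1299. Among all genes that have an interval the shares there were 34.8% and 31.7%. In HCT116 no pseudogene interval lay above or below 1, against 34.0% and 34.4% of all genes that have one. PCDHB18 (PCDHB18P in GENCODE) had 1 and 70 counts in H1299 and 0 and 44 in HCT116. A numbered feature listed only with DAC+SB held part of these. Its feature without a number had 1 and 59 counts in H1299 (61.0, 10.5 to 2449) and 0 and 20 in HCT116, at least 10.7-fold higher. PCDHGB9P went the other way in H1299, with 44 and 21 counts (0.493, 0.279 to 0.847). The 5 pseudogene names together went from 92 to 145 counts in H1299 (1.63, 1.25 to 2.14) and from 8 to 66 in HCT116 (13.3, 6.36 to 32.0). Without PCDHB18 they were at 91 and 75 counts in H1299 (0.852, 0.619 to 1.17) and at 8 and 22 in HCT116 (4.42, 1.90 to 11.5).

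**Figure D3:**
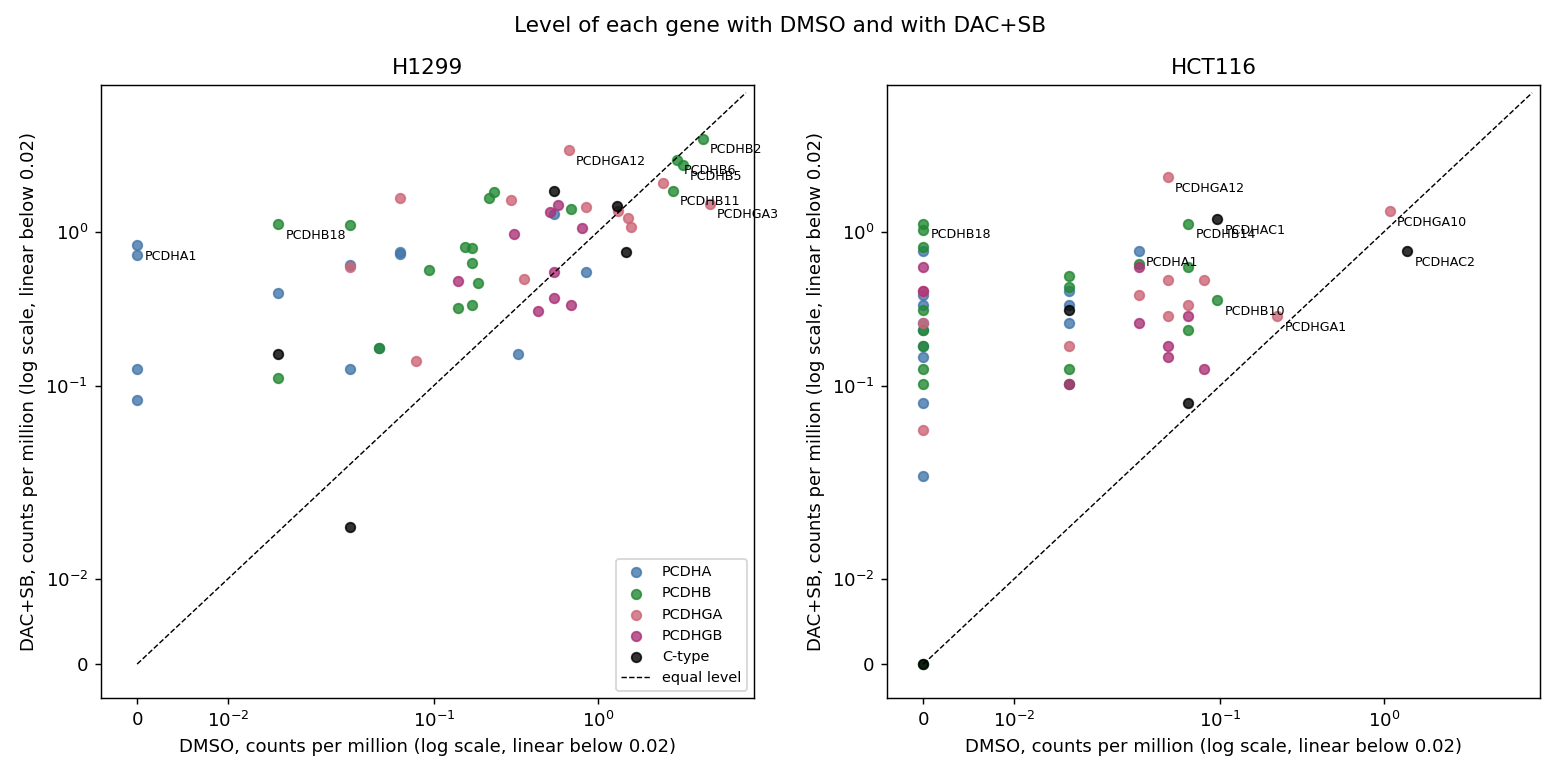
Level of each of the 57 genes with DMSO (x axis) against DAC+SB (y axis) in CPM, on axes that are logarithmic above 0.02 and linear below, for H1299 (left) and HCT116 (right). Points above the dashed line are higher with DAC+SB. In H1299 the genes highest with DMSO lie on or under the line, and in HCT116 only PCDHAC2 lies clearly under it.

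The relation to the untreated level was then set out for all genes. In H1299 the 7 genes with at least 100 DMSO counts (PCDHB2, PCDHB5, PCDHB6, PCDHB11, PCDHGA3, PCDHGA4 and PCDHGA6) summed to 1450 counts with DMSO and 1010 with DAC+SB, a ratio of 0.720 (0.664 to 0.781). Each of the 7 had a ratio below 1, from 0.317 to 0.970, but the interval lay below 1 for only 3. Over features without a number PCDHB2 was at 1.03. The ratios of all genes in the same classes of DMSO counts were not computed, so the pattern is not shown to be particular to this set. The 20 genes with 20 to 99 DMSO counts went from 961 to 1362 (1.46, 1.35 to 1.59), and the 30 genes with 0 to 19 went from 164 to 1191 (7.51, 6.37 to 8.89). In HCT116 PCDHAC2 and PCDHGA10 were the 2 genes with 20 or more DMSO counts and went from 155 to 82 counts together (0.851, 0.643 to 1.12). The other 55 went from 95 to 851 (14.4, 11.7 to 18.0), so the ratio of the HCT116 set without these 2 genes was 3.85 on the log2 scale, against 2.59 with them. The classes were formed from the DMSO counts that also enter the ratio, so chance in those counts raises the ratio of the low class and lowers that of the high class.

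The spread of counts over the genes widened in both lines. In HCT116 the 2 genes with most counts held 62.0% of the set's counts with DMSO (exact Clopper-Pearson interval 55.7 to 68.0) and 15.1% with DAC+SB (12.9 to 17.6). In H1299 the shares were 23.0% (21.4 to 24.7) untreated and 12.99% (11.9 to 14.1) treated. The number of genes with a count was 53 and 57 in H1299 and 33 and 55 in HCT116. At an equal 250 counts of the set, the number expected was 37.1 and 49.0 in H1299 and 33.0 and 50.1 in HCT116. The effective number of genes, the exponential of the Shannon entropy of their shares, was 24.4 and 41.3 in H1299 and 9.92 and 39.8 in HCT116. Over features without a number it was 27.9 and 43.0, and 11.7 and 42.4. Both treated libraries therefore spread their counts over a like number of genes, from different starting points. The share of all genes that gained a count was not computed, so the widening is not shown to be particular to this set.

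**Figure D4:**
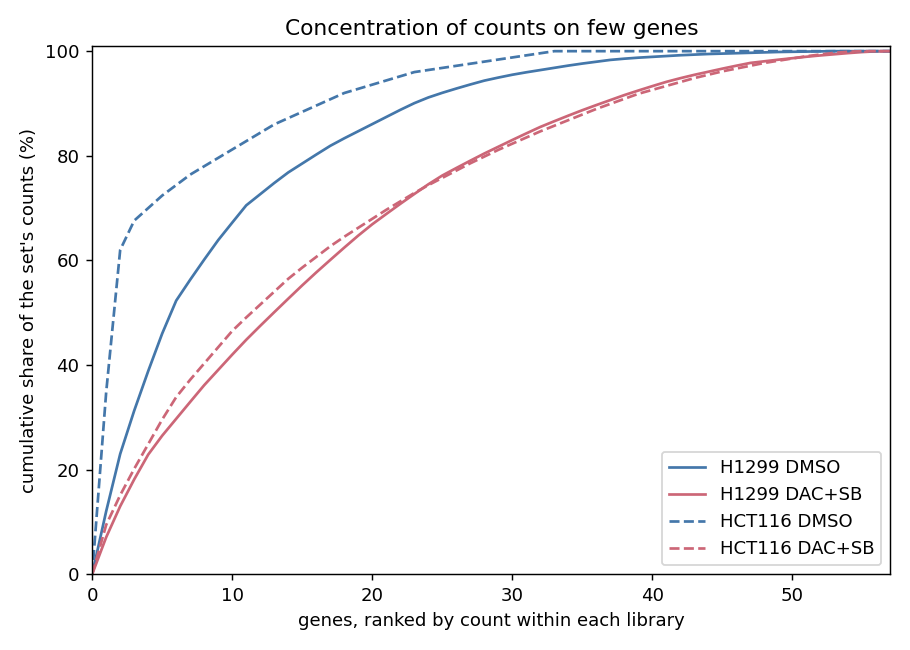
Cumulative share of the set's counts (%) against genes ranked by count in each library, with H1299 solid, HCT116 dashed, DMSO blue and DAC+SB red. The first 10 genes hold 67.2% and 81.2% with DMSO in H1299 and HCT116, and 42.0% and 46.5% with DAC+SB, where both curves nearly overlap.

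The correlation between the profiles of the 2 lines was also higher with DAC+SB. Across the 57 genes, log2 counts with 1 count added had a Pearson correlation of 0.258 (Spearman 0.268) between the DMSO libraries and of 0.726 (Spearman 0.641) between the DAC+SB libraries. Within H1299 the correlation of DMSO with DAC+SB was 0.628, and within HCT116 it was 0.356. These are descriptions across genes, which are not replicates, and the 250 counts of untreated HCT116 leave most genes at 0 to 4 counts there. No correlation was computed at equal counts, so the part that depth has in the difference was not tested. The 10 genes with most counts shared 2 names between the DMSO libraries and 4 between the DAC+SB libraries.

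Single cells carried few of these counts. An entry of a gene feature in a cell was 1 count in 85.0% to 89.6% of cases, and the highest was 8. Each cell was therefore thinned to 3300 counts, which left out 402 of the HCT116 DAC+SB cells and no others. A count of any of the 57 genes was then found in 417 of 3578 H1299 DMSO cells (11.7%, 10.6 to 12.8) and in 655 of 3726 DAC+SB cells (17.6%, 16.4 to 18.8). In HCT116 it was found in 58 of 3658 cells (1.59%, 1.21 to 2.04) and in 281 of 3925 (7.16%, 6.37 to 8.01). Thinning is random, and another draw gave 11.8%, 17.8%, 1.504% and 7.59% in the same order. Unthinned, 44.1% and 54.7% of H1299 cells and 5.47% and 16.9% of HCT116 cells had a count, at the median depths given above. The alpha genes went from 19 to 65 thinned cells in H1299 (0.531% to 1.74%) and from 1 to 50 in HCT116 (0.0273% to 1.27%), and from 20 to 86 and from 1 to 56 in the other draw. The C-type genes were found in 36 and 52 thinned H1299 cells (1.01% and 1.40%) in one draw and in 38 and 36 in the other, so no order was read from them. No cell type known to lack these genes was part of the same libraries, so the share of counts from free RNA was not measured.

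Cells with more than 1 of the genes were also counted. In thinned cells 2 or more were found in 26 H1299 DMSO cells (0.727%, 0.475 to 1.06) and 75 DAC+SB cells (2.01%, 1.59 to 2.52), and in 1 and 13 HCT116 cells (0.0273% and 0.331%). Another draw gave 36 and 65 H1299 cells and 0 and 13 HCT116 cells. Without thinning they were found in 13.5% and 21.3% of H1299 cells and in 0.301% and 1.87% of HCT116 cells, and the highest number in a cell was 7, in treated H1299. A higher level alone raises this number, and at this depth the absence of a gene from a cell cannot be told from a missed transcript.

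**Figure D5:**
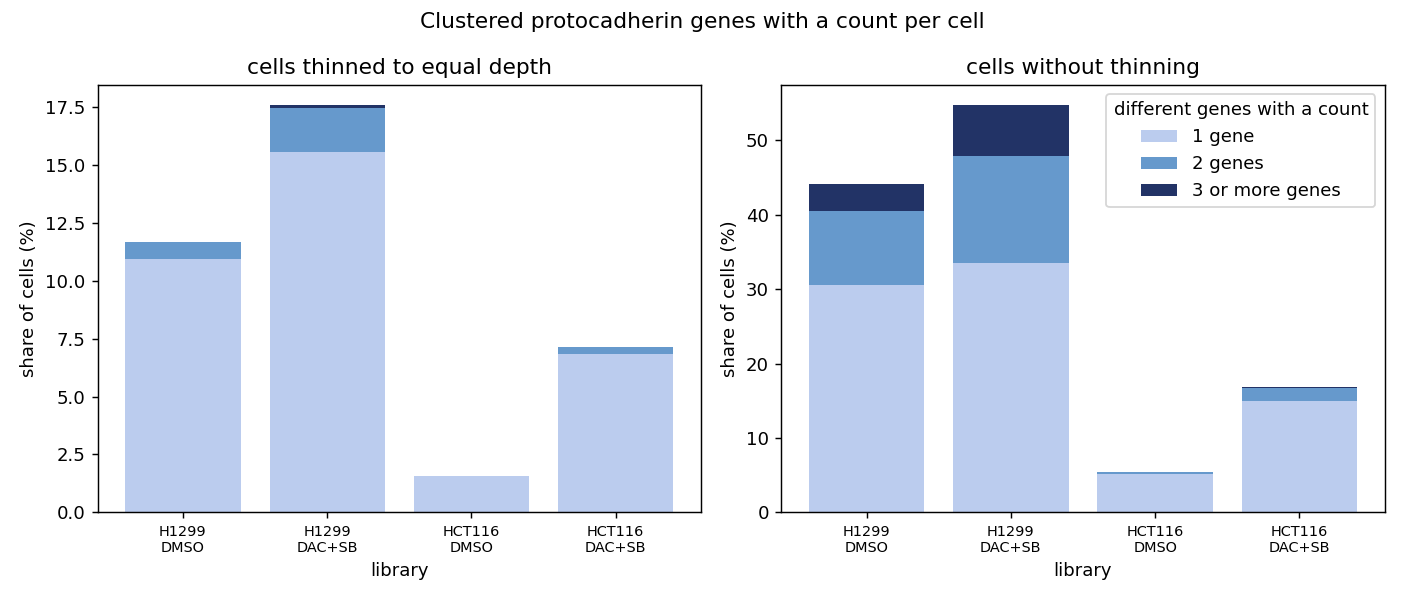
Share of cells (%) with counts of 1, 2 or at least 3 different clustered protocadherin genes in each library, after thinning to 3300 counts (left) and without thinning (right, with its own axis). The bars reach 11.7%, 17.6%, 1.59% and 7.16% on the left, and most cells in each bar had a count of 1 gene.

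Other genes of the pathway were read from lists under the rule of at least 100 counts and a 4-fold ratio. The list of CTCF, cohesin and silencing genes, which set the promoter choice and repression of the arrays, had 0 of 18 genes higher in either line (11.0% of all genes in H1299 and 9.63% in HCT116), 0 lower in H1299 (0.349%) and 1 lower in HCT116 (3.69%). Its median log2 ratio was -0.53 in H1299 and -0.77 in HCT116, against -0.07 and -0.23 over all genes. The gene lower in HCT116 was STAG2, a cohesin subunit, with 3848 and 342 counts (log2 ratio -2.81), and it was at -1.33 in H1299. CTCF, whose protein binds the protocadherin promoters, was at -0.79 and -1.07, and RAD21, another cohesin subunit, at -0.54 and -1.10. SMCHD1, which represses the arrays, was at -0.08 and -0.49. Without passing 4-fold, some genes had log2 ratios of opposite sign in the 2 lines, among them DNMT3B (0.97 and -0.74), a DNA methyltransferase gene, ADNP (0.30 and -1.26) and ZNF274 (-0.52 and 0.96).

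The list of signalling partners, such as the focal adhesion kinases and the WAVE complex that bind protocadherin tails, had 0 of 15 genes higher (11.0% of all genes) or lower (0.349%) in H1299. In HCT116 1 of 17 was higher (9.63%) and 0 lower (3.69%). That gene was RET, a receptor tyrosine kinase that phosphorylates protocadherins, with 185 and 588 counts in HCT116 (log2 ratio 2.35) and 0 and 81 in H1299. The list's median log2 ratios were -0.24 and -0.27, against -0.07 and -0.23 over all genes.

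The 12 non-clustered protocadherins, had 2 of 4 genes higher in H1299 (11.0% of all genes) and 3 of 5 in HCT116 (9.63%), with 0 lower (0.349% and 3.69%). PCDH10 had 42 and 386 counts in H1299 (log2 ratio 3.25) and 2 and 138 in HCT116 (6.79). PCDH9 had 1 and 197 counts in HCT116 (8.31) and 179 and 502 in H1299 (1.54). PCDH19 had 28 and 175 in HCT116 (3.33), and PCDH1, which is also in the list of neighbours of the arrays, had 16 and 117 in H1299 (2.92). PCDH7, not past 4-fold, had 746 and 416 counts in H1299 (-0.80) and 243 and 91 in HCT116 (-0.73). Of 18 other genes of the cadherin superfamily, 0 of 6 were higher (11.0% of all genes) or lower (0.349%) in H1299, and 2 of 7 were higher (9.63%) and 0 lower (3.69%) in HCT116. These were CDH1, the epithelial cadherin, with 50 and 135 counts in HCT116, and CDH2, the neural cadherin, with 0 and 156. Both are also marker genes of the lists used to check the lines, and their part in the protocadherin values was not tested.

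Genes that flank the arrays on the same chromosome arm went both ways. Of 15 neighbours with at least 100 counts in each line, 1 was at least 4-fold higher in each (11.0% of all genes in H1299 and 9.63% in HCT116) and 0 lower (0.349% and 3.69%). Their log2 ratios ran from -0.77 to 2.92 in H1299 (median 0.09) and from -1.50 to 2.47 in HCT116 (median -0.09). TAF7, a general transcription factor gene between the beta and gamma arrays, had 6967 and 6044 counts in H1299 (log2 ratio -0.16) and 4370 and 3703 in HCT116 (0.45). DND1, near the alpha array, was the neighbour past 4-fold in HCT116 with 89 and 307 counts (log2 ratio 2.47), and PCDH1 the one in H1299. HDAC3, a histone deacetylase gene among these neighbours, was at -0.08 and -0.50.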

How the data were processed

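The authors deposited whole-number counts per gene feature and cell and per transposable element locus and cell, per the file headers, with no zeros listed. The labels describe 10x Genomics 5′ libraries of polyadenylated RNA. The submitters' processing notes name CASAVA, STAR, GRCh38 and hg38 with no role or version. The counting tool, the annotation, the cell filter and whether counts are unique molecules are not stated in the sources at hand. Each cell name ends in its library's name, and all 15289 cells were assigned in this way.

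Features of a gene carry a number or none, and the lowest listed count of a numbered feature was 10 in every library. What the number stands for is not stated in the sources at hand. A zero can therefore hide unlisted counts. Counts were summed per name and library (numpy 2.4.6, scipy 1.17.1, Python 3.11.15) and divided by the gene and transposable element total. Summed counts carry exact Poisson intervals, shares exact Clopper-Pearson intervals, ratios exact conditional binomial intervals, and differences between lines a normal approximation to the log count, all covering counting error only. A zero was set to 3 counts for a bound, and the bounds printed rest on features without a number, which are listed from 1 count, a choice made after seeing the data. Member counts at a minimum of 1 or 20 counts use all listed features. No fold is given when both libraries were at or under 3 counts. Names that join genes (2419 in the table) held 11.4% to 18.3% of gene counts. The calling step was tested on simulated data with counting noise only. The changed genes there had ratios beyond 4-fold and more DMSO counts than most members, so calls at low counts were not tested. Cells were thinned by 1 random draw with a fixed seed, and a first draw with another seed was replaced during the work. No doublet caller was run. Alternatives left out 5% of cells with most counts, cells above 25% mitochondrial counts or numbered features of 1 library, added joined names, and changed the denominator, the minimum count and the fold.

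Members and lists were chosen with earlier results of these data known. Genes named were the 10 with the highest count in either library of each line, the C-type genes, the first and last of each array, joined names with at least 100 counts, members at least 4-fold lower, and from lists those past 4-fold (at most 4 per list). PCDHA3, PCDHA4, PCDHA11, PCDHA12, PCDHB12, PCDHGA2, PCDHGA4, PCDHGA8, PCDHGA11, PCDHGB4, PCDHGB9P, PCDH7, VIM, CAV1, FSTL1, EPCAM, ESRP1, CTCF, RAD21, SMCHD1, DNMT3B, ADNP, ZNF274, TAF7 and HDAC3 were named after their values were seen. RefSeq promoter windows are on GRCh38.p14.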

Additional observations from a re-analysis of the deposited data

Results flagged for a closer look

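By their counting intervals PCDHB11 and PCDHGA4 moved in opposite directions in the 2 lines, on few counts in HCT116. The log2 ratio of PCDHB11 was -0.64 in H1299 (185 to 115 counts) and 1.86 in HCT116 (4 to 9 counts). Its HCT116 ratio of 3.62 was borderline, with an interval of 1.01 to 16.1. That of PCDHGA4 was -0.57 in H1299 (103 to 67) and 2.39 in HCT116 (4 to 13). The difference between the lines was not tested, since each group was 1 library. Names in which a clone precedes a beta gene fell outside the rule for members. Of these, CH17-140K24.5_PCDHB9 had 0 (DMSO) and 15 (DAC+SB) counts in H1299, and 7 and 19 in HCT116. PCDHB9 had no row under its own name.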

How the results depend on the processing

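The log2 ratio of the whole set (0.52 in H1299 and 2.59 in HCT116) was 0.40 in H1299 when a numbered feature listed in 1 library only was left out, and 3.85 in HCT116 without PCDHAC2 and PCDHGA10, an alternative chosen after seeing the data. The other settings kept it within its counting interval. The number of members at least 4-fold higher in H1299 (5 at a minimum of 100 counts) was 20 at 1 count, 17 at 20 counts, 0 at 500 counts, 1 under that same restriction and 2 without the 5% of cells with most counts. In HCT116 it was 0, and 38 at 1 count and 13 at 20 counts. At 2-fold 1 member was lower in H1299 (7.34% of all genes). The share of cells with a count went from 11.7% to 44.1% (H1299 DMSO), 17.6% to 54.7% (H1299 DAC+SB), 1.59% to 5.47% (HCT116 DMSO) and 7.16% to 16.9% (HCT116 DAC+SB) without thinning, and was 0.601% in HCT116 DMSO without PCDHAC2 and PCDHGA10. The share with 2 or more genes became 13.5%, 21.3%, 0.301% and 1.87% without thinning, and 0% in HCT116 DMSO (0.0273%, 1 cell) in another draw, an alternative also chosen after seeing the data. Thinning draws fewer counts per cell, which lowers these shares by construction. For the other settings that moved a value, the cause was not tested. Of the recomputed group ratios 68 stayed within their intervals and 2 did not, and of the recomputed ratios of named genes 147 did and 3 did not. Of the recomputed bounds, which have no interval, 32 moved by under 0.5 on the log2 scale and 3 by more. None of these recomputed values changed sign where its interval had excluded no change, but only genes named by the rule were recomputed. PCDHA11, outside it, went from lower to level in H1299 (35 and 34 counts) without its numbered feature. Depth limits most single genes of untreated HCT116, which had 250 counts in all. No paired analysis was possible because each comparison is within 1 line, where each group is 1 library, and the labels give no replicate number. A fit of 1 treatment effect over both lines was not run.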
